A study of Mus musculus with 9 samples.

Results

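The genes described here are the subunits of the transcription factor NF-κB and the inhibitors that act on it, measured in mouse thymic tumours, in thymocytes of young mice of the same genotype and in control thymocytes. All probe sets whose only gene symbol was Rel, Rela, Relb, Nfkb1, Nfkb2, Nfkbia, Nfkbib, Nfkbie, Tnfaip3 or Bcl3 were taken. This gave 17 of 45037 probe sets, for 9 of the 10 genes, and all 17 passed the filter on low signal that left 26421 probe sets and 11644 genes. Nfkb1, the gene of the p105 and p50 proteins, had no probe set under its own symbol in the annotation used and was not analysed here.

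The samples came from 9 C57Bl/6 mice, with 1 Affymetrix array for each mouse. The 4 tumour samples were unsorted thymic tumours of R26NC/NC CD4Cre+ mice aged 28, 26, 23 and 21 weeks (tumours 1 to 4), in which at least 95% of the cells carried both CD4 and CD8. The 3 pre-transformed samples were CD4+CD8+ double-positive (DP) thymocytes of R26NC/NC CD4Cre+ mice aged 6 weeks, sorted to over 98% purity, and the 2 control samples were sorted DP thymocytes of R26NC/NC CD4Cre- mice of the same age. The R26NC/NC allele was thus present in every mouse. It expresses an activated form of β-catenin, the nuclear effector of canonical Wnt signalling, in cells where the Cre recombinase driven by Cd4 is present. Tumour RNA (2.5 µg) went through the standard Affymetrix labelling and sorted-cell RNA (0.1 µg) through an amplification kit, so tumour state, age, sorting and labelling cannot be told apart in any comparison with tumours. No mouse without the R26NC/NC allele was analysed here, with or without Cre, so Cre and β-catenin cannot be told apart either. The control group held only 2 mice, and so few arrays limit how precise any value can be.

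NF-κB is a dimer of Rel-homology proteins. RelA, c-Rel and RelB carry transactivation domains, and p50 and p52 are the processed products of Nfkb1 and Nfkb2. In resting cells the IκB proteins (IκBα, IκBβ and IκBε, encoded by Nfkbia, Nfkbib and Nfkbie) hold these dimers in the cytoplasm until the IκB kinase (IKK) complex marks them for degradation. A second, non-canonical route runs through the kinase NIK and the processing of Nfkb2, and yields dimers of p52 and RelB. Several inhibitor genes are themselves NF-κB targets and form negative feedback loops, above all Nfkbia and Tnfaip3, which encodes the ubiquitin-editing enzyme A20. Bcl3 is an atypical IκB protein that acts in the nucleus on p50 and p52 dimers. In the thymus, NF-κB is best known for its part in pre-T-cell survival, in selection and in the function of thymic epithelium.

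Promoter sequences are shown because several members are known to be controlled by NF-κB itself. The 130 bases before the annotated transcript start are given for the 5 genes with a match to the κB consensus in that stretch, written 5′ to 3′ on the strand of the gene with the matches in capitals (RefSeq, GRCm38.p6).
Nfkbia, chr12:55492648-55492777, minus strand: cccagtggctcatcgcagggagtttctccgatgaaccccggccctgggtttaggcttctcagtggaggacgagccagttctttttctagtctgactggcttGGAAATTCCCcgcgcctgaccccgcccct
Nfkb2, chr19:46304607-46304736, plus strand: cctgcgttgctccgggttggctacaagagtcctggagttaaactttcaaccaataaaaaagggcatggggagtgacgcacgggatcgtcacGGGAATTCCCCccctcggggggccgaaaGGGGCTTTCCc
Nfkbie, chr17:45555570-45555699, plus strand: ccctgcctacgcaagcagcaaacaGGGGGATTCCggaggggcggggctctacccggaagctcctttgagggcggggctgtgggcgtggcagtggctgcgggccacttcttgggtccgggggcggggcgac
Rel, chr11:23770970-23771099, minus strand: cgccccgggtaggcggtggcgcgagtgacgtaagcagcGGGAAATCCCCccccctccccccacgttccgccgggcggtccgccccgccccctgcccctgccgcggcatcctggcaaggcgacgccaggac
Tnfaip3, chr10:19015411-19015540, minus strand: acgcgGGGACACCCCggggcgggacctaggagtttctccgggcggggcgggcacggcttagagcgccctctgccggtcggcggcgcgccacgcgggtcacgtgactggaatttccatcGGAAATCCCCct

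The search used the degenerate 10-base κB consensus on both strands of windows that ran from 250 bases before to 50 bases after each annotated start, and matches that overlapped each other were counted once per gene. Of the 8 members with a window in the table used, 6 (75%) had at least 1 match, against 576 (6.09%) of 9453 tested genes with a window. Over all promoter windows the share was 4.51%, or 1480 of 32851. Nfkbia had its match at bases -29 to -20 from the start, Nfkbie at -106 to -97 and Bcl3 at 3 to 12, within the transcribed part. Tnfaip3 had 2 separate matches in its second window, at -125 to -116 and at -12 to -3. Nfkb2 had matches at -39 to -29 and at -11 to -2 of its first window, and at -236 to -227 and 11 to 20 of its second. The third window overlaps the second, and its only match, at -225 to -216, is the same site as that at 11 to 20. The windows of Rela and Nfkbib held no match. A match describes the letters only, and binding was not measured here.

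**Figure D1:**
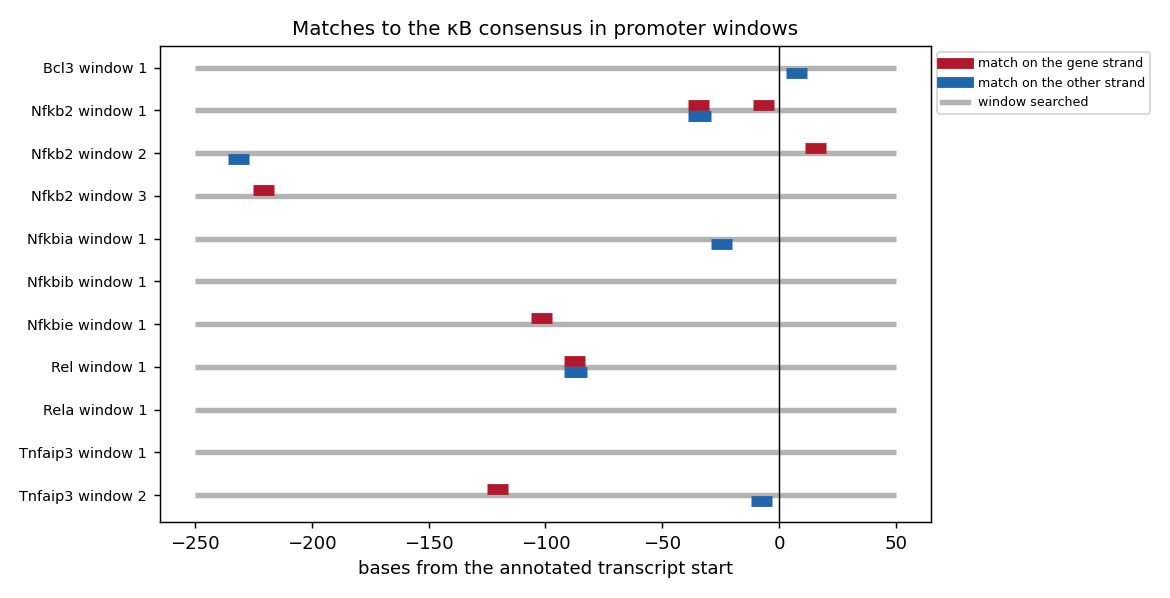
Matches to the κB consensus in the promoter windows of 8 NF-κB genes, plotted by distance in bases from the annotated transcript start. Grey lines are the windows searched, and red and blue blocks are matches on the strand of the gene and on the other strand. Rela and Nfkbib have no block, and most blocks of the other genes lie before the start.

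The labelled cell type was checked first. Cd4 and Cd8a, which define DP thymocytes, were bright on all 9 arrays. The summed signal of 12 DP thymocyte markers was 16753.5 to 22753.5 in tumours, 39646.6 to 41704.1 in pre-transformed cells and 37308.9 to 39395.2 in controls. Of the 12, 11 fell in tumours relative to pre-transformed cells, where 31% of all genes tested fell. Signals are MAS5 values, which summarise the matched and mismatched probes of a probe set and were scaled per array. Array medians were 9.9 to 15.2 signal units. A probe set is called dim below the 65th percentile of its array (28.5 to 44.6), a level at which a signal has no secure size. The ratio of 3′ to 5′ probe sets of β-actin was higher in tumours (log2 0.81 ± 0.28, SD, n = 4) than in sorted cells (0.26 ± 0.05, n = 5; exact two-sided permutation p = 0.00794, the smallest that 126 splits allow), while the Gapdh ratio gave -0.31 ± 0.19 in tumours and -0.20 ± 0.12 in sorted cells (exact permutation p = 0.317). Marker lists of other cell types are set beside the results further on.

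In tumours the measured NF-κB subunits were either lower than in pre-transformed thymocytes or too dim to size. Rela and Nfkb2 fell. Rel and Relb were dim on every array and passed no test. Among the inhibitors, Nfkbia, Nfkbib and Nfkbie fell. Tnfaip3 fell on its brighter probe set and rose on its other one, so that its direction rests on the probe set read. Bcl3 was dim on every array, and no size or direction of change is drawn from it. By the labels, at least 95% of tumour cells carried both CD4 and CD8, against over 98% purity in the sorted samples. What part fewer DP cells and what part less RNA per cell have in these falls was not tested.

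Rela, which encodes the most widely used transactivating subunit, had signals of 232.5, 249.4, 442.2 and 263.4 in tumours 1 to 4, against 708.8, 739.2 and 712.6 in pre-transformed cells and 658.5 and 618.5 in controls. Every tumour lay below every sorted sample, and tumour 3 was the highest of the tumours. The geometric means were 287 in tumours and 720 in pre-transformed cells, a 2.51-fold fall (log2 change -1.33 ± 0.21, SE, n = 4 and 3, limma adjusted p = 0.000542). The 3 pre-transformed arrays differed by little, with a log2 SD of 0.03, against 0.42 among tumours.

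Nfkb2, which encodes p100 and its product p52, had signals of 19.1, 9.3, 31.1 and 21.3 in tumours, against 86.9, 84.6 and 61.0 in pre-transformed cells and 63.2 and 48.5 in controls, on its brighter probe set. It was dim in all 4 tumours and above the dim limit on all 5 sorted arrays, with no overlap. Since the tumour signal has only an upper bound, the fall was at least 2.13-fold (log2 change -2.05 ± 0.39, limma adjusted p = 0.00154). The other probe set of Nfkb2 was likewise dim in each tumour, at 11.7 to 23.8, and read 44.5 to 108.3 in pre-transformed cells and 44.0 to 44.6 in controls.

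Rel, which encodes c-Rel, had signals of 19.2, 6.7, 17.9 and 12.8 in tumours, 17.5, 18.8 and 18.1 in pre-transformed cells and 18.4 and 17.5 in controls. The groups overlapped, and only tumours 2 and 4 lay clearly under the narrow band of the sorted samples. The log2 change between tumours and pre-transformed cells was -0.47, with a 95% interval of -1.40 to 0.46 (limma adjusted p = 0.362). Relb, whose protein pairs with p52, had 16, 10.5, 33.3 and 23.5 in tumours, 28.4, 27.5 and 23.2 in pre-transformed cells and 18.1 and 16.2 in controls. Tumour 3 was the highest and tumour 2 the lowest of all 9 arrays. Its log2 change was -0.46 with an interval of -1.37 to 0.44 (adjusted p = 0.352). These intervals leave room for a change of either sign.

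**Figure D2:**
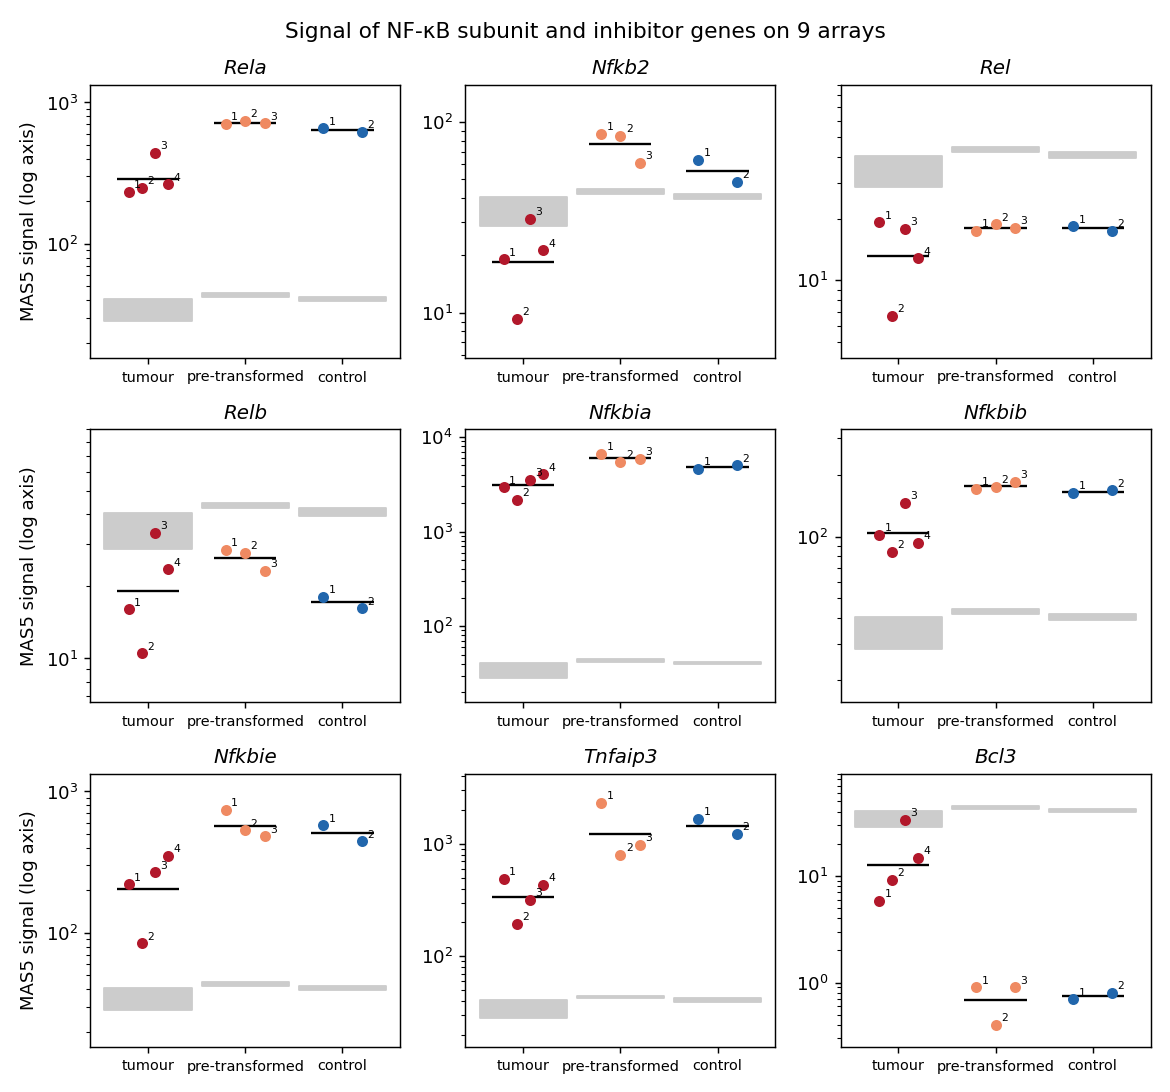
MAS5 signal (log axis) of the 9 NF-κB genes on each array, on the probe set that represents the gene, with tumours in red, pre-transformed cells in orange and controls in blue. Small numbers are the replicates, black lines the geometric means, and grey bands the range of the dim limit in each group. Rela, Nfkb2, Nfkbia, Nfkbib, Nfkbie and Tnfaip3 show every tumour below every sorted sample, Bcl3 the opposite below the limit, and Rel and Relb overlap.

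Nfkbia, which encodes IκBα, was read by 5 probe sets, and each of them fell in tumours. On the brightest, the signals were 2921.6, 2170.7, 3500.3 and 4042.1 in tumours, against 6669.0, 5487.4 and 5866.6 in pre-transformed cells and 4622.0 and 5021.6 in controls. Tumours and sorted samples did not overlap, and tumour 4 came nearest to the controls. The fall against pre-transformed cells was 1.95-fold (log2 change -0.96 ± 0.19, limma adjusted p = 0.00198). The size of the fall depended on the probe set. On probe set 1448306_at, for example, tumours had 499.0, 406.0, 902.7 and 800.4, against 4009.8, 2833.6 and 2931.3 in pre-transformed cells and 2483.8 and 2398.7 in controls, a 5.20-fold fall against pre-transformed cells (log2 change -2.38). Probe sets 1449731_s_at and 1420089_at gave log2 changes of -2.37 and -2.24, and 1438157_s_at gave -1.33. In all 5, tumour 2 was the lowest array of the 9. Where each probe set lies along the transcript was not used here, and the part of labelling and of the higher β-actin 3′ to 5′ ratio in this range of sizes was not tested.

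Nfkbib, which encodes IκBβ, gave the smallest called fall. Its signals were 102.0, 84.0, 145.9 and 93.2 in tumours, against 170.1, 174.6 and 184.2 in pre-transformed cells and 163.0 and 167.8 in controls. The groups did not overlap, although tumour 3 stood close to the controls. The fall was 1.70-fold (log2 change -0.76 ± 0.21, limma adjusted p = 0.0102), and the call ended when both probe sets were averaged (adjusted p = 0.269). A second probe set of Nfkbib was dim throughout, at 0.9 to 10.7 in tumours, 1.4 to 12.5 in pre-transformed cells and 5.0 to 6.1 in controls, and passed no test.

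Nfkbie, which encodes IκBε, had signals of 220.4, 84.3, 268.5 and 349.4 in tumours, against 739.2, 531.6 and 480.5 in pre-transformed cells and 575.3 and 444.1 in controls. All tumours were lower than all sorted samples, and tumour 2 was far below the other tumours. The fall was 2.81-fold (log2 change -1.49 ± 0.41, limma adjusted p = 0.0118), and it missed the threshold at an adjusted p of 0.0525 without pre-transformed replicate 1. A second probe set gave 27.7 to 99.6 in tumours, 201.6 to 275.3 in pre-transformed cells and 171.2 to 179.8 in controls, a log2 change of -1.93 against pre-transformed cells.

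Tnfaip3 had the largest fall among the inhibitors on the probe set that represents it, and its 2 probe sets went opposite ways. On probe set 1433699_at the signals were 489.9, 194.3, 317.6 and 429.1 in tumours, against 2322.8, 795.5 and 984.6 in pre-transformed cells and 1669.3 and 1231.2 in controls. Here every tumour was below every sorted sample, and the fall was 3.62-fold (log2 change -1.85 ± 0.40, limma adjusted p = 0.00296). On probe set 1450829_at the signals were 148.4, 59.5, 43.3 and 90.4 in tumours, against 43.1, 12.9 and 14 in pre-transformed cells and 41.9 and 23.0 in controls. All 4 tumours were above the dim limit and all 5 sorted samples were under it, although tumour 3 at 43.3 lay next to pre-transformed replicate 1 at 43.1. That probe set passed the test in the upward direction, by at least 1.75-fold (log2 change 1.95 ± 0.54, adjusted p = 0.0132 among probe sets). The mean of both probe sets moved by only 0.05 on the log2 scale between the groups (adjusted p = 0.933). The direction of Tnfaip3 thus rests on which probe set is read, and which of its transcripts each probe set matches was not used here.

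Bcl3 had signals of 5.8, 9.2, 33.6 and 14.7 in tumours, against 0.9, 0.4 and 0.9 in pre-transformed cells and 0.7 and 0.8 in controls. Every tumour was above every sorted sample, but no array reached its dim limit, so no fold is given. The probe set passed the filter through tumours 3 and 4 alone, which selects for higher tumour signal, so its pass in the limma test is no independent support. Of all 864 genes that passed through tumour arrays alone, 484 rose against pre-transformed cells. As a guide to the empty signal of each array, 27 probe sets for bacterial control transcripts had medians of 1.1 to 3.2 and highest values of 7.8 to 13.9 on tumour arrays, and medians of 0.3 to 1.1 and highest values of 2.4 to 5.0 on sorted arrays. The brightest bacterial probe set read 9.2, 7.8, 10.8 and 13.9 on tumours 1 to 4, which is above the Bcl3 signal in tumour 1, near it in tumours 2 and 4 and far below it in tumour 3. When every signal under the highest dim limit was set to that limit, the Bcl3 change was 0.

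Of the 9 genes, 6 fell and 1 rose in tumours against pre-transformed cells, where 31% of all genes tested fell and 23.9% rose (54.9% changed in either direction). The members' median log2 change was -0.96 and that of all genes was -0.12. With so broad a difference between these groups, a single call is common. The count of falls holds Tnfaip3, whose probe sets disagree, and the 1 rise is Bcl3, which was dim and passed the filter through tumours alone. Without these genes, 5 of 7 members fell and 0 rose. The other scalings moved the median of all genes to -0.38 (each array centred on its median) and -0.09 (quantile normalization), and the same number of members passed in each direction under both. Tumour and pre-transformed arrays did not overlap for 7 of the 9 genes, and for 57% of all genes. Counted by probe set, 12 of 17 fell and 2 rose, against 26.7% and 23.1% of all probe sets kept. This count repeats genes, since 5 of the falls are of Nfkbia.

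**Figure D3:**
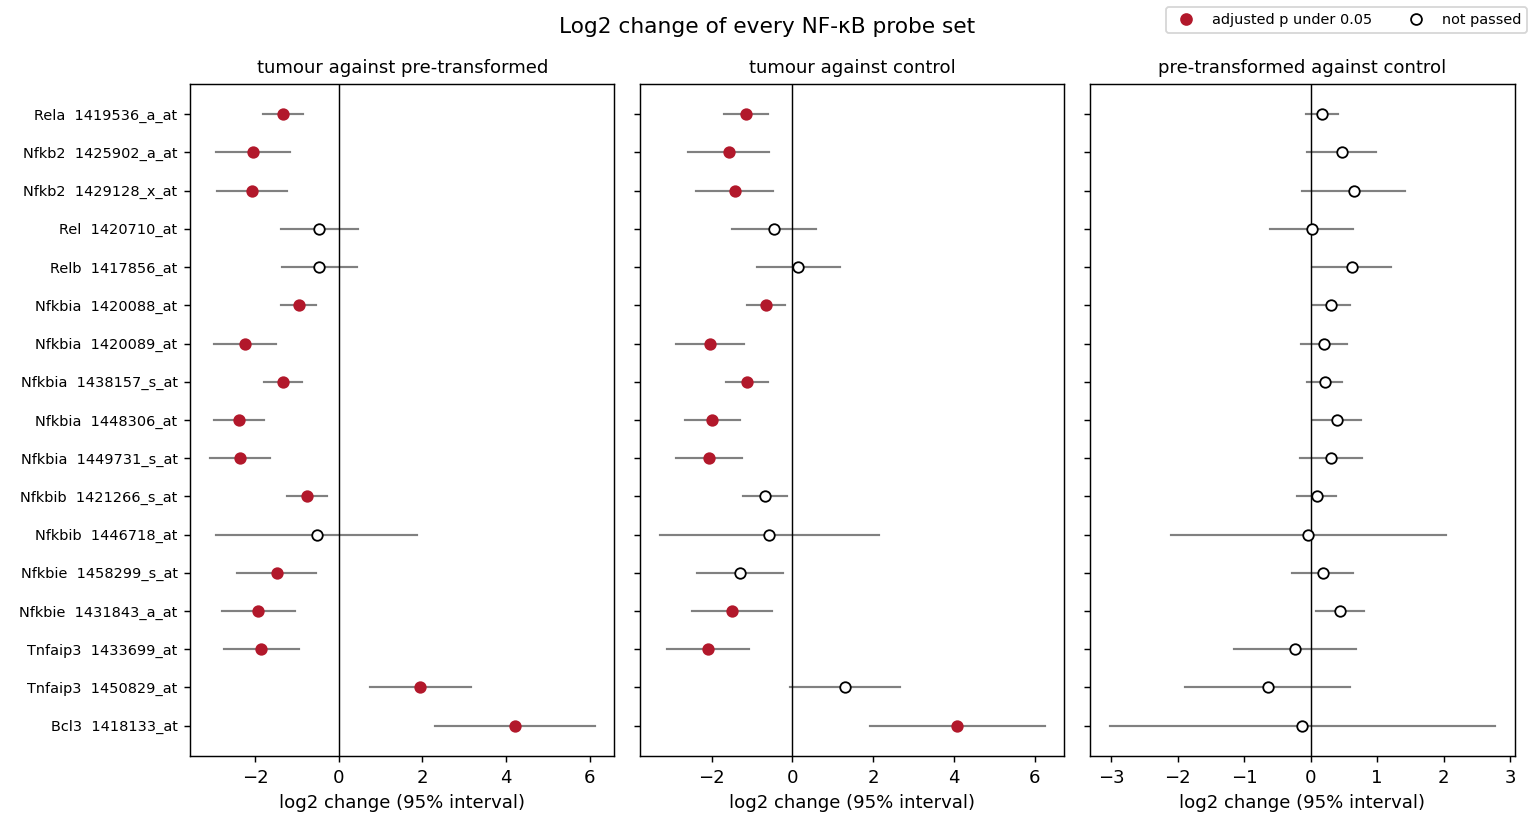
Log2 change of each of the 17 NF-κB probe sets with its 95% interval, for tumours against pre-transformed cells, tumours against controls and pre-transformed cells against controls. Filled red points passed an adjusted p of 0.05 among probe sets and open points did not. In both tumour panels most points lie left of 0, with probe set 1450829_at of Tnfaip3 and Bcl3, whose size is not secure, on the right. Relb, which was dim and did not pass, also lies right of 0 against controls (0.15). No point is filled in the last panel.

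Tumours were also compared with the controls, and both tumour comparisons share the same 4 tumour arrays. Here 6 members fell and 1 rose, against 25.2% and 20.5% of all genes tested (45.7% in either direction). The rise was again that of Bcl3, and without Tnfaip3 and Bcl3 the count was 5 of 7 lower and 0 higher. On the probe sets that represent them, tumours and controls did not overlap for 7 members and for 60.5% of all genes. The median log2 change was -0.67 for the members and -0.08 for all genes. Rela was 2.23-fold lower in tumours than in controls (log2 change -1.15, limma adjusted p = 0.00363), Nfkb2 at least 1.54-fold (-1.58, adjusted p = 0.0153) and Tnfaip3 4.25-fold (-2.09, adjusted p = 0.00434). Nfkbia, Nfkbib and Nfkbie also fell, with log2 changes of -0.65, -0.67 and -1.31 and adjusted p-values of 0.0328, 0.0383 and 0.0431. The other probe sets of Nfkbia gave larger falls, from -1.12 to -2.07, each with an adjusted p of 0.00445 or less among probe sets. The other probe set of Tnfaip3, 1450829_at, had a log2 change of 1.3 against controls (adjusted p = 0.112 among probe sets), and the mean of both gave -0.39 (adjusted p = 0.542). With only 2 controls these calls were fragile: 1 member passed without control 1, 3 passed without control 2 and 4 passed without tumour 1. Rela passed in each of those 3 fits, with adjusted p-values of 0.0425, 0.0284 and 0.00794.

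The comparison of pre-transformed cells with controls sets Cre+ against Cre- mice before tumours form, in sorted cells that were labelled alike. Cre and active β-catenin cannot be told apart in it. No member passed the limma test, where 1.63% of all genes did. On the probe sets that represent them, 2 members had an unadjusted p under 0.05. These were Nfkbia, with a log2 change of 0.31 (95% interval 0.04 to 0.59, adjusted p = 0.222), and Relb, with 0.62 (0.02 to 1.22, adjusted p = 0.271) at dim signals. Of the 9 changes 7 pointed upward, with a median of 0.17, against 0.02 over all genes. Pre-transformed and control arrays did not overlap for 4 members (Nfkbia, Nfkbib, Rela and Relb), and 36.3% of all genes did not overlap. Nfkb2 had a log2 change of 0.47 (-0.04 to 0.97) and Rela one of 0.17 (-0.04 to 0.39). For Rel (0.01), Nfkbib (0.09), Nfkbie (0.18), Tnfaip3 (-0.23) and Bcl3 (-0.12) the estimate was smaller than its standard error or near it. The sign changed for all 5 under at least 1 alternative. On its other probe set Nfkbie had 0.44 (0.07 to 0.80, adjusted p = 0.221 among probe sets), and the groups did not overlap. Counted by probe set, 4 of 17 had an unadjusted p under 0.05 and 0 passed.

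The 4 tumours differed more from each other in most of these genes than pre-transformed mice did. Tnfaip3 went the other way, with a log2 SD of 0.59 among tumours and 0.82 among pre-transformed mice. The median log2 SD of the members was 0.69 among tumours, against 0.42 over all genes tested, and 0.16 among pre-transformed mice, against 0.19 over all genes. The tumour median of the members is the value of Rel, which was dim. Tumour 2 had the lowest tumour signal in 13 of the 17 probe sets. Tumour 3 had the highest in 7, tumour 4 in 6, tumour 1 in 3 and tumour 2 in 1. The tumours were 28 to 21 weeks old, and age and tumour cannot be told apart with 1 mouse at each age.

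Markers of other cells also set tumour 2 apart from the other tumours, and their part in the results was not tested. The summed signal of 14 myeloid markers was 3661.1, 179.4, 3811.1 and 3487.4 in tumours 1 to 4, against 175.9 to 312.8 in pre-transformed cells and 165.4 to 209.1 in controls. The sum of tumour 2 was thus within the range of the sorted samples and the other tumours were far above it. Most of that sum in tumour 2 came from 1 gene, Itgam, at 113.2. The sum of 9 dendritic markers was 2906.3, 68.8, 2366.4 and 2757.2 in tumours, against 164.5 to 228.1 in pre-transformed cells and 123.4 to 163.9 in controls. The sum of 8 B-cell markers, most of it Ighm, was 5675.9, 258.0, 5426.3 and 1888.9 in tumours, 1793.3 to 2086.9 in pre-transformed cells and 2817.5 to 3065.5 in controls. Lyz2, a myeloid lysozyme, read 1659.3, 3.1, 1376.4 and 1741.0 in tumours, and Csf1r read 412.3, 8.4, 300.6 and 475.0. For 7 mature T-cell markers the sums were 159.6 to 1221.7 in tumours, 92.4 to 129.7 in pre-transformed cells and 97.0 to 149.9 in controls. For 14 markers of stroma and epithelium they were 201.4 to 520.4, 186.3 to 239.9 and 181.9 to 225.6 in the same order of groups, and for 3 erythroid markers 13.1 to 71.4, 2.6 to 5.7 and 1.4 to 4.2. Relative to pre-transformed cells, 5 of 14 myeloid, 1 of 7 dendritic and 3 of 7 B-cell markers that could be tested rose in tumours. So did 2 of 5 mature T-cell, 1 of 8 stromal and 1 of 1 erythroid markers. None passed in the downward direction. Of those 13 rises, 11 were in genes that reached the array median on tumour arrays alone, which selects for higher tumour signal. Among them were Alas2, the erythroid gene, and Ms4a1, a B-cell gene. Cd79b, another B-cell gene, went the other way without passing. It read 80.7, 1.3, 73.6 and 108.5 in tumours, against 195.8 to 253.9 on sorted arrays. Over all genes 23.9% rose, so these counts show little by themselves, and the sums carry the comparison. No marker gene was at 0 on every array.

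The comparison was also fitted with tumour 2 as the only tumour, an alternative added after the data were seen that takes the spread of this 1 mouse to be that of the sorted groups. Compared with pre-transformed cells, Rela changed by -1.53, Nfkb2 by -3.04, Nfkbia by -1.46, Nfkbib by -1.07, Nfkbie by -2.77 and Tnfaip3 by -2.65 on the log2 scale. In this fit 8 of 9 members were lower, Rel (-1.44, limma adjusted p = 0.00953) and Relb (-1.32, adjusted p = 0.0097) among them. Since tumour 2 had the lowest tumour signal in most of these probe sets, larger falls in it restate that order. Tumour 2 was not low in every marker of other cells. Itgam, a myeloid integrin, read 113.2 in it, the highest of the 9 arrays, and its mature T-cell sum of 159.6 and erythroid sum of 13.1 were above those of the sorted samples. The part of other cells in these values was not tested.

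**Figure D4:**
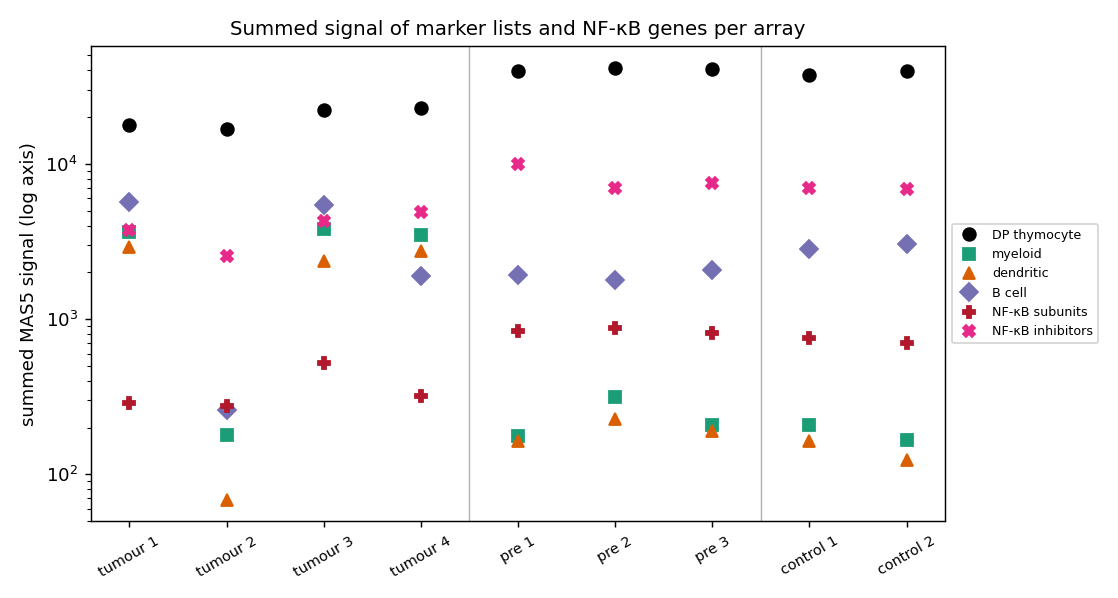
Summed MAS5 signal (log axis) of marker lists and of the NF-κB subunits and inhibitors on each of the 9 arrays. Each symbol is 1 list, and heights can be compared between arrays within a list but not between lists. Tumour 2 has low myeloid, dendritic and B-cell sums, near or below those of the sorted samples, and the lowest sums of NF-κB subunits and inhibitors.

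The remaining IκB genes and the kinases upstream were described from lists of pathway genes. Both other atypical IκB genes fell in tumours against pre-transformed cells, where 31% of all genes tested fell and 23.9% rose. Nfkbiz, which encodes IκBζ, had 66.0, 23.2, 74.2 and 68.4 in tumours, against 507.2, 280.8 and 239.8 in pre-transformed cells and 347.1 and 204.1 in controls. This was a 6.14-fold fall against pre-transformed cells (log2 change -2.62, limma adjusted p = 0.000672), with no overlap and with tumour 2 lowest once more. Nfkbiz was dim in tumour 2, so the size rests in part on a dim signal. Nfkbid, which encodes IκBNS, fell 2.25-fold (log2 change -1.17, adjusted p = 0.0152). Its groups overlapped, with tumour 3 at 230.3 inside the pre-transformed range of 215.7 to 286.1. Against controls Nfkbid did not pass (adjusted p = 0.057). Of 5 tested kinase genes 4 fell, beside the same 31% of all genes. They were Ikbkg, the regulatory subunit NEMO (2.00-fold), Ikbke (2.53-fold), Tbk1 (2.38-fold) and Map3k14, which encodes NIK and was dim in all tumours (at least 1.83-fold). Ikbkb, the catalytic subunit IKKβ, had mean signals of 806 in tumours and 902 in pre-transformed cells and did not pass (log2 change -0.16, adjusted p = 0.344). Chuk, the IKKα gene, was not analysed here.

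The genes that link antigen receptors to IKK went both ways. Prkcq, which encodes the T-cell kinase PKCθ, had 287.4, 130.1, 380.6 and 230.3 in tumours, against 1515.4, 1285.9 and 1377.5 in pre-transformed cells and 1157.6 and 1115.5 in controls. The groups were far apart, and the fall against pre-transformed cells was 5.81-fold (log2 change -2.54, limma adjusted p = 9.8e-05). Bcl10 fell 1.64-fold and Malt1, its partner, rose 1.71-fold, a rise that did not pass when each array was centred on its median.

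The counts that follow are read against the 31% of all genes that fell and the 23.9% that rose in this comparison. Among 17 adaptors of tumour necrosis factor (TNF) and Toll-like receptors, 9 fell and 1 rose, with a median log2 change of -0.69. Under quantile normalization 8 fell and 4 rose, and under median centring 12 fell and none rose. Traf1, itself a known NF-κB target, fell at least 2.70-fold and was dim in all tumours, Map3k7 (the kinase TAK1) fell 3.68-fold, Traf2 3.08-fold and Birc2 (cIAP1) 2.63-fold. Of 14 negative regulators 5 fell and 4 rose, with a median of -0.17, so that counts and median were near those of all genes. With arrays centred on their medians 7 fell and 3 rose. Zc3h12a, the RNase Regnase-1, fell at least 1.76-fold, Nkiras1 2.60-fold and the ubiquitin ligase gene Itch 2.44-fold. Nkrf, a repressor of NF-κB targets, rose 2.41-fold.

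Of 12 receptors tested, 5 fell and 2 rose, against 31% and 23.9% of all genes. Tnfrsf1a, the main TNF receptor, had 62.8, 143.0, 176.6 and 153.9 in tumours, against 570.1, 579.7 and 672.6 in pre-transformed cells and 485.9 and 555.4 in controls, a 4.85-fold fall against pre-transformed cells. Tnfrsf18 (GITR) fell 5.22-fold, a size that rests in part on a dim signal of 24.5 in tumour 1. Both genes that rose reached the array median on tumour arrays alone, which selects for higher tumour signal. None of the other 10 receptors rose. Tnfrsf13c, the BAFF receptor, had 36.3, 10.7, 28.5 and 53.5 in tumours, against 0.5 to 3.1 on sorted arrays. Cd40 had 33.9, 11.7, 21.2 and 30.1 in tumours, against 1.1 to 7.3 on sorted arrays, all of them dim. Both genes were lowest in tumour 2. B cells and antigen-presenting cells are known to express them, and the part of such cells in these signals was not tested. Of 10 ligand genes 3 fell and none rose, and this share of falls was close to that of all genes. Ltb, the lymphotoxin β ligand that signals to stroma, had 136.8, 16.9, 356.0 and 292.5 in tumours, against 1909.0, 1227.6 and 1433.3 in pre-transformed cells and 2114.1 and 2182.3 in controls. Its fall against pre-transformed cells was 12-fold (log2 change -3.59, limma adjusted p = 0.00546). Ltb was dim in tumour 2, so this size rests in part on a dim signal. Tnfsf9 fell at least 1.69-fold, and Tnfsf14 had a mean of 1.46 in tumours against 27.9 in pre-transformed cells, with 1 array above the dim limit. Tnfsf14 passed the filter through sorted arrays alone, which selects for lower tumour signal.

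Among 22 target genes tested, 10 fell and 3 rose, against 31% and 23.9% of all genes, with a median log2 change of -0.60. Egr1 had 79.1, 30.7, 220.8 and 201.3 in tumours, against 1399.5, 1425.2 and 1214.9 in pre-transformed cells and 1028.1 and 1063.6 in controls. It fell 13.2-fold against pre-transformed cells. Slfn2 fell 10.4-fold and the interferon-inducible Gbp2 8.82-fold. These were above the dim limit in only 3 and 2 of the 4 tumours, so the sizes rest in part on dim signals. Cd83 had 71.9, 40.9, 70.6 and 79.1 in tumours, against 1.0, 1.6 and 1.4 in pre-transformed cells and 2.6 and 1.1 in controls. It reached the array median on tumour arrays alone, which selects for higher tumour signal. Sod2, the mitochondrial superoxide dismutase, is named outside the rule for named genes and was chosen after its values were seen. It had 1189.5, 1182.0, 851.8 and 946.7 in tumours, against 243.8, 277.6 and 248.8 in pre-transformed cells and 280.8 and 308.8 in controls. Here tumour 2 was as high as tumour 1, and the rise against pre-transformed cells was 4.03-fold (log2 change 2.01, limma adjusted p = 1.5e-05). Targets thus did not share 1 direction. Many of these genes also answer to other transcription factors, and several are induced by T-cell receptor signals.

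**Figure D5:**
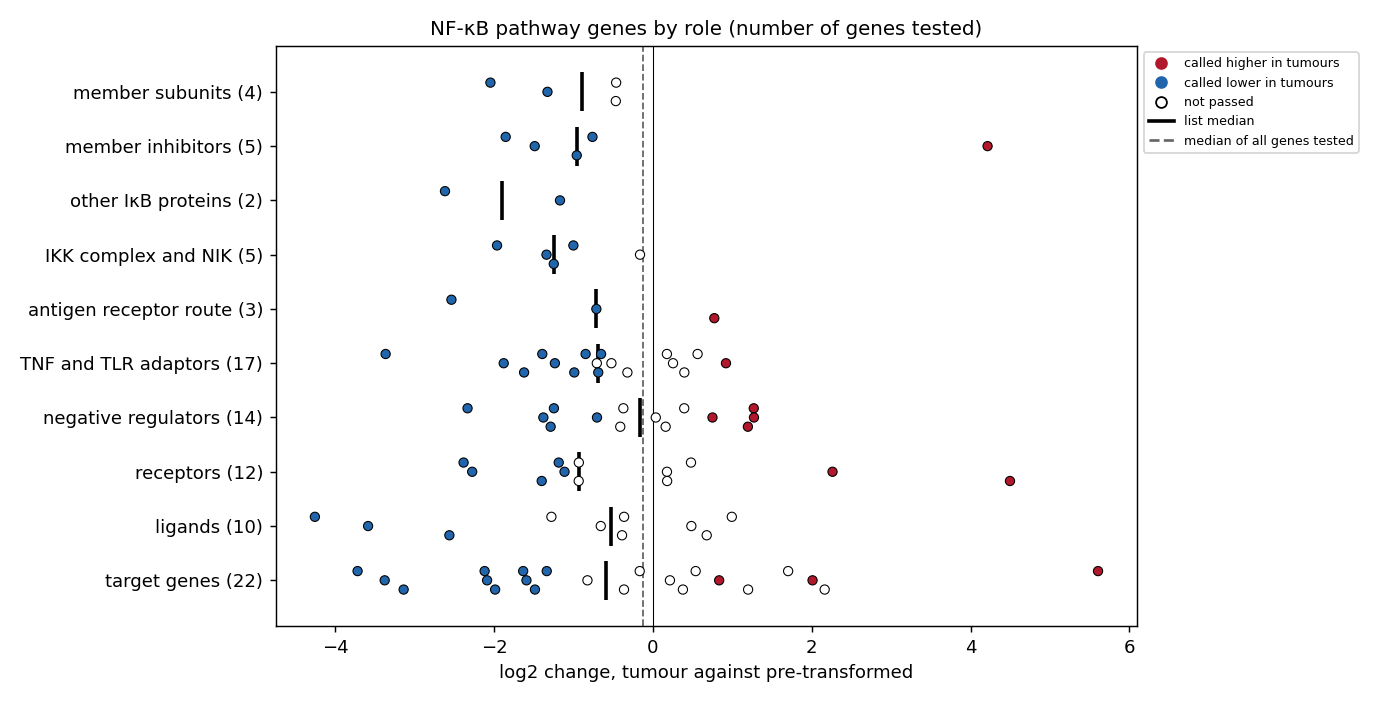
Log2 change between tumours and pre-transformed cells of each gene tested, by role in the NF-κB pathway (number of genes tested in brackets). Red and blue points passed in the upward and downward direction, open points did not pass, black bars are list medians and the dashed line is the median of all genes tested (-0.12). Subunits, other IκB proteins and kinases lie at or left of that line, and negative regulators spread over both sides of it.

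In pre-transformed cells against controls no gene of these pathway lists passed the test. Against controls, tumours showed falls and rises in 7 and 1 adaptors, 4 and 3 negative regulators, 5 and 3 receptors, 4 and 1 ligands and 10 and 2 target genes, where 25.2% of all genes fell and 20.5% rose. Under median centring the same comparison gave 11 and 0, 6 and 1, 5 and 2, 4 and 0, and 12 and 2.

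Over all tested genes with a promoter window, the 576 with a κB match had a median log2 change of -0.27 between tumours and pre-transformed cells, and 35.6% of them fell and 21.2% rose. The 8877 genes without a match had a median of -0.13, and 31.2% fell and 23.9% rose. These shares are descriptions and were not tested against each other. Nfkbia, Nfkb2 and Nfkbie fell and had a match. Tnfaip3, whose probe sets went opposite ways, also had one, and so did Rel and Bcl3, which were dim. Rela and Nfkbib fell and had none.

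The member with the most negative fitted log2 change against pre-transformed cells was Nfkb2, although its size is known only as a bound and Tnfaip3 had the larger change against controls. The genes most like it were sought over all 11644 genes by Pearson correlation of log2 signal over the 9 arrays, which share the split between tumours and sorted cells. They were Fam214a (r = 0.991), Cd8a (0.991) and Parp3 (0.989), with correlations of 0.958, 0.962 and 0.948 after the group means were taken out. Nfkb2 was dim in all 4 tumours, so these correlations rest in part on signals of no secure size. No such genes are given for Bcl3, the only member with a called rise, because it was dim on every array. These are the highest of many values from 9 arrays and are given as a description.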

How the data were processed

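The authors deposited signal intensity, linear and made with MAS5 per the submitters' processing notes, whose version those notes leave out. Each array's mean without the outer 2% of probe sets was 100.0. The 64 control probe sets were set aside, 218 values of 0 became 0.1, and signals were taken to log2 without further normalization. A probe set was kept where it reached its array's median on 2 or more arrays, and the brightest kept probe set stood for a gene. Probe sets naming 1 gene numbered 34945, several 932 and none 9160. Tests were limma 3.58.1 in R 4.3.3 (lmFit, eBayes with a trend), on all 9 arrays for tumours and on 5 for the sorted groups, with Benjamini-Hochberg adjustment over all genes and a threshold of 0.05. The method was tested on simulated data. Group signals are geometric means. "At least" folds set the dim group to its arrays' dim limit.

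Same-numbered samples are different mice, and their deviations correlated at -0.02 to 0.09, so no pairing was used. The members, pathway lists and markers were chosen with earlier results of these data known. Named genes were all members, every other IκB, kinase and antigen receptor gene, up to 4 of each longer list by size of change, the brightest markers and, outside this rule, Sod2 and some markers chosen after their values were seen. Bcl3 gets no genes of like pattern because it was dim throughout. By Xist and Eif2s3y, tumour 4 and pre-transformed replicate 1 were male and the others female. Alternatives were other scalings, filters, probe set choices, variance models and sets of arrays. No cause of any difference was tested.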

Additional observations from a re-analysis of the deposited data

How the results depend on the processing

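Against pre-transformed cells, 7 of 9 members passed in the main analysis, 6 to 7 with 1 array left out, 7 with the replicate block and 3 of the 6 genes that have probe sets without suffixes, where fewer genes could be tested. Against controls, 7 passed in the main analysis, 6 with the replicate block, 4 when only tumours and controls were fitted, 3 without suffixed probe sets, 2 with a common floor (added after the data were seen) and 1 to 7 with 1 array left out: 1 without control 1, 3 without control 2 and 4 without tumour 1. Between the sorted groups none passed in any of 19 alternatives. Rela passed in each alternative of both tumour comparisons that could test it. Nfkbib lost its call against controls in 15 of 24 alternatives and Nfkbie in 11 of 23, and the cause was not tested. Tnfaip3 against pre-transformed cells turned to 0.0485 as the mean of its opposed probe sets. Signs turned only for uncalled changes otherwise. Relb against controls was -0.235 under median centring, -0.1301 with the replicate block, -0.7056 with tumour 2 alone and -0.1156 (without tumour 3) to 0.4394 with 1 array left out. Between the sorted groups, Rel was -0.1175 under median centring, -0.0734 under quantile normalization, and -0.0217 (without control 2) to 0.0507 with 1 array left out, where it was -0.0119 without pre-transformed 2. Nfkbib was -0.0406 under median centring and -0.0377 without suffixed probe sets, Nfkbie -0.004 (without control 2) to 0.3694 and -0.0002 without pre-transformed 1, Bcl3 0.0407 with array weights and -0.3187 to 0.2662 (without pre-transformed 2), and Tnfaip3 -0.6959 to 0.0771 (without pre-transformed 2). Over all genes, the calls numbered 5037 to 13168 against pre-transformed cells (main 6392), 2589 to 10555 against controls (5323) and 1 to 431 between the sorted groups (190). Rel, Relb and Bcl3 lay below the dim limit on every array, which limits what they can show.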
